A study of Rattus norvegicus with 40 samples.

Results

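The miR-23, miR-27 and miR-24 clusters are sets of miRNA hairpins that lie next to each other in the genome and are transcribed together. Every mature product named miR-23a, miR-23b, miR-27a, miR-27b or miR-24 was taken, with any copy or arm suffix, which gave 11 of the 752 miRNAs counted. They were rno-miR-23a-3p, rno-miR-23b-3p, rno-miR-27a-3p, rno-miR-27b-3p and rno-miR-24-3p, with the opposite arms miR-23a-5p, miR-23b-5p, miR-27a-5p, miR-27b-5p, miR-24-1-5p and miR-24-2-5p. Small RNA was sequenced from tail-vein EDTA plasma of 20 adult male Sprague-Dawley rats, each sampled on day 2 (D2) and day 9 (D9) after the operation, which gave 40 libraries. Lateral fluid-percussion injury, a model of traumatic brain injury (TBI), was made in 16 rats. The 4 sham-operated rats had the surgery and its craniotomy without the injury. Continuous video-EEG in the sixth month sorted the injured rats into 7 that had developed epilepsy (TBI+) and 9 that had not (TBI−). All groups share strain, sex and a craniotomy, and each library stands for pooled plasma of 1 rat on 1 day in this single injury model.

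Each cluster transcript is cut into hairpins, and each hairpin can release a product from both of its arms, one of which is usually kept as the guide that represses target mRNAs. MiR-23 is known for its place in glutamine metabolism and vessel growth, miR-27 for restraining fat cell formation and lipid genes, and miR-24 for restraining the cell cycle. MiR-23a is also widely used in plasma as the steady partner of miR-451, a red cell miRNA, when lysis of red cells is judged.

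In the RefSeq annotation of GRCr8, Mir23a, Mir27a and Mir24-2 are neighbours on chromosome 19, and Mir23b, Mir27b and Mir24-1 are neighbours on chromosome 17, inside the gene Aopep. RefSeq held the mature sequence of 10 of the 11 miRNAs. The products that carried most reads, and the opposite arms of miR-27 and miR-24, are given 5′ to 3′ because their likeness decides which of them reads can tell apart. Capitals mark the seed, bases 2 to 8, which finds the targets, and products with the same seed stand together.
rno-miR-23a-3p: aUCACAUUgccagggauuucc
rno-miR-23b-3p: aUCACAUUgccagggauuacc
rno-miR-27a-3p: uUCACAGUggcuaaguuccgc
rno-miR-27b-3p: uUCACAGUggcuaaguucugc
rno-miR-27a-5p: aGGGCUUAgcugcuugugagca
rno-miR-27b-5p: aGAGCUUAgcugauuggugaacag
rno-miR-24-3p: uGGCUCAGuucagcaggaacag
rno-miR-24-2-5p: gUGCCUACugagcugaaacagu
rno-miR-24-1-5p: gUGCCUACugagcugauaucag

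MiR-23a-3p and miR-23b-3p differ by 1 base, U19A counted from the 5′ end, and miR-27a-3p and miR-27b-3p by C19U. Both differences lie outside the seed, so the members of a pair address the same seed matches. No other miRNA of the counts with a RefSeq sequence carried the seed of miR-23-3p, miR-27-3p or miR-24-3p. MiR-24-3p is made from both clusters, since 2 hairpins release the same sequence. Its opposite arms differ between the clusters at 5 bases, the first at A17U, so miR-24-2-5p and miR-24-1-5p can be told apart. MiR-27a-5p and miR-27b-5p differ in the seed and in length, and can be told apart as well.

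The reads were dominated by miR-27. Levels are given in CPM, the reads of a miRNA scaled to a library total of 1e+06 miRNA reads, so that they are shares of the sequenced miRNA and not plasma concentrations. Over the 40 libraries, miR-27b-3p averaged 16051 ± 3612 CPM (SD) and miR-27a-3p 15484 ± 3560 CPM. MiR-23a-3p averaged 2913 ± 1076 CPM and miR-23b-3p 2827 ± 1057 CPM. The next in order was miR-24-3p with a median of 772 CPM, followed by miR-24-2-5p with a mean of 329 ± 111.2 CPM. MiR-23a-3p was above miR-27a-3p in 0 of 40 libraries, miR-24-3p above miR-23a-3p in 2 of 40 and miR-24-2-5p above miR-24-3p in 1 of 40. The means of each near-identical pair differed by less than their SD over the libraries, whereas the order within a library was steady. The 10 products with a known sequence are 21 to 24 bases long, and reads are counted per product and not per length.

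The other arms were rare. MiR-27a-5p averaged 24.5 ± 11.4 CPM and miR-27b-5p 14.7 ± 9.0 CPM (SD, n = 40). MiR-23a-5p had 25 reads in 16 libraries and miR-23b-5p had 13 reads in 9 libraries, with at most 3 reads in any of them, so no fold change is given for either. MiR-24-1-5p had 0 of 46093381 reads, a limit of 0.0651 CPM that covers counting error alone. Since miR-122-5p, miR-126a-5p, miR-1-3p and miR-133a-3p also had 0 reads in all libraries, a 0 in these counts may not mean that a product was absent. Together the 11 miRNAs took a median of 3.95% of a library's miRNA reads on D2, from 3.19% to 5.00%. On D9 their share ran from 1.41% to 8.02%, or to 4.91% without sham rat 2. Reads that match both members of a pair could be counted for both, which the labels leave unstated, so these shares may count some reads at both.

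Within the pairs, the counts ran in parallel. MiR-23a-3p was the higher member in 39 of 40 libraries, at a median of 102.9% of miR-23b-3p (99.3% to 110.8%). MiR-27b-3p was the higher member in 40 of 40 libraries, at a median of 103.2% of miR-27a-3p (100.3% to 113.1%). The a and b members are therefore described together, and which cluster the reads came from cannot be told apart by them. The opposite arms of miR-24 and miR-27 differ between the clusters. MiR-24-2-5p, from the miR-23a cluster, stood at a median of 42.8% of miR-24-3p, while the corresponding arm of the miR-23b cluster had no read, which for the reason above does not show that it was absent. For miR-27 both clusters had reads, with 1250 of miR-27a-5p and 686 of miR-27b-5p, from the miR-23b cluster. They were few beside the guides, with miR-27a-5p at a median of 0.148% of miR-27a-3p and miR-27b-5p at 0.0799% of miR-27b-3p.

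The D9 library of sham rat 2 stood apart from the other 39. It held 8690 reads of miR-24-3p among 162125, or 5.36% (95% Wilson interval 5.25% to 5.47%, counting error only). MiR-24-3p was the fifth most abundant miRNA there, against ranks from 57 to 84 in the other libraries. Its level was 42.8 times the highest of the others, the 1251 CPM of TBI− rat 8 on D2. The same library had 1961 CPM of miR-23a-3p and 10819 CPM of miR-27a-3p, both within the range of the other libraries. Its 660 CPM of miR-24-2-5p was the highest of the 40 libraries, next to 536.5 CPM in TBI− rat 1 on D9. MiR-24-2-5p, cut from the same hairpin as part of miR-24-3p, stood at 1.23% of it, against at least 18.2% in the other D9 libraries.

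In that library 9 miRNAs with at least 10 reads exceeded the highest level of every other library by at least 10 times, and none of the other 39 libraries had such a miRNA. They were miR-24-3p, miR-185-5p, miR-7a-5p, miR-455-3p, miR-494-3p, miR-7b, miR-503-5p, miR-3068-5p and miR-1b. MiR-185-5p had the largest ratio, with 1622 CPM or 109.3 times the next library. That library, sham rat 3 on D9, had 14.8 CPM, the level of 3 reads there, so the ratio is imprecise. The bases at the start of these miRNAs were looked at after their values were seen. UGG opened 5 of the 9 sequences, against 12 of the 493 with a sequence and a D9 read (2.43%). Among the 149 with a sequence and 10 reads in this library it opened 5 (3.36%). The count is a description without a test, and miR-7a-5p and miR-7b, both among the 5, are nearly identical. The 3 lymphocyte miRNAs miR-150-5p, miR-342-3p and miR-155-5p summed to 75553 CPM in this library, and to 15494, 9086 and 15938 CPM in the D9 libraries of sham rats 1, 3 and 4. Among the sham libraries of D9, its sums of red cell, platelet and myeloid, brain and muscle miRNAs were also the highest (44768, 30908, 3750 and 12.3 CPM). Its sum of vessel wall miRNAs was the lowest there (13230.5 CPM), and that of liver miRNAs lay between the others. What set this library apart was not tested, and comparisons whose fit holds it are given without sham rat 2 as well.

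MiR-23 was lower on D9 than on D2. In the 16 injured rats miR-23a-3p lay between 2690 and 4813 CPM on D2 with a median of 3598, and between 524 and 3067 CPM on D9 with a median of 2352. In the sham-operated rats 1 to 4 it was 3123, 3969, 4301 and 4048 CPM on D2. On D9 the same rats had 981, 1961, 629 and 2490 CPM. Every one of the 20 rats had less miR-23a-3p on D9 than on D2. The 4 sham-operated rats did not overlap between the days, whereas the injured rats did. This is a description without a test, and the share of all miRNAs without such an overlap is not given. A rat's D9 level was at the median 58.3% of its D2 level, from 14.6% to 79.6%.

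In TBI rats the D9 against D2 comparison asks how the plasma profile moved over the week after injury. The mean of miR-23a-3p went from 3734 ± 598 to 2205 ± 662 CPM (SD, n = 16), a log2 fold change of −0.74 (SE 0.16, adjusted p = 0.00028 from the quasi-likelihood test of edgeR, by Benjamini-Hochberg). For miR-23b-3p it was −0.76 (SE 0.16, adjusted p = 0.00026). These were the 2 of 10 tested members called at an adjusted p below 0.05, both lower, in a comparison that called 32.0% of 581 miRNAs, with 18.1% called lower. The pair differs by 1 base and ran in parallel, so its 2 calls are not separate findings here or in sham-operated rats. The values were −0.69 and −0.71 without sham rat 2 in the fit, a choice made after the data were seen (adjusted p = 0.0015 and 0.0013). Of 270 miRNAs with a mean of at least 10 CPM, 10 (3.70%) were lower on D9 in all 20 rats, both miR-23 guides among them, and 0 were higher in all, a count without a test.

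Days and groups are spread unevenly over the library numbers in the labels, whose meaning the labels do not state. The numbers were divided in ascending order into 3 runs of 16, 13 and 11 libraries. The labels do not mark these runs, the step between the first and the second is 4 and that between the second and the third is 1, and steps within a run reach 5. Within the first run the injured rats averaged 3920 ± 671 CPM of miR-23a-3p on D2 (n = 4) and 2056 ± 819 CPM on D9 (n = 8). In the second run the averages were 3588 ± 577 CPM (n = 9) and 2723 ± 313 CPM (n = 4). In the third run they were 3922 ± 674 CPM (n = 3) and 1983 ± 205 CPM (n = 4). The injured rats of a run differ in outcome between the days. In the first run they are 4 TBI+ on D2, and 3 TBI+ and 5 TBI− on D9. In the second they are 3 TBI+ and 6 TBI− on D2, and 4 TBI− on D9. The third has 3 TBI− on D2 and 4 TBI+ on D9, so day and outcome cannot be told apart within it. With that limit, the D9 average was the lower one in each run. With the run but not the outcome as a term in the fit, added after the data were seen, the log2 fold change was −0.70 (adjusted p = 0.0011). It was −0.71 with the last library of the second run put in the third, and −0.73 with the number itself as a linear term (adjusted p = 0.00094 and 0.00037, with 4.6e-07 to 0.0015 over 10 alternatives).

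**Figure D1:**
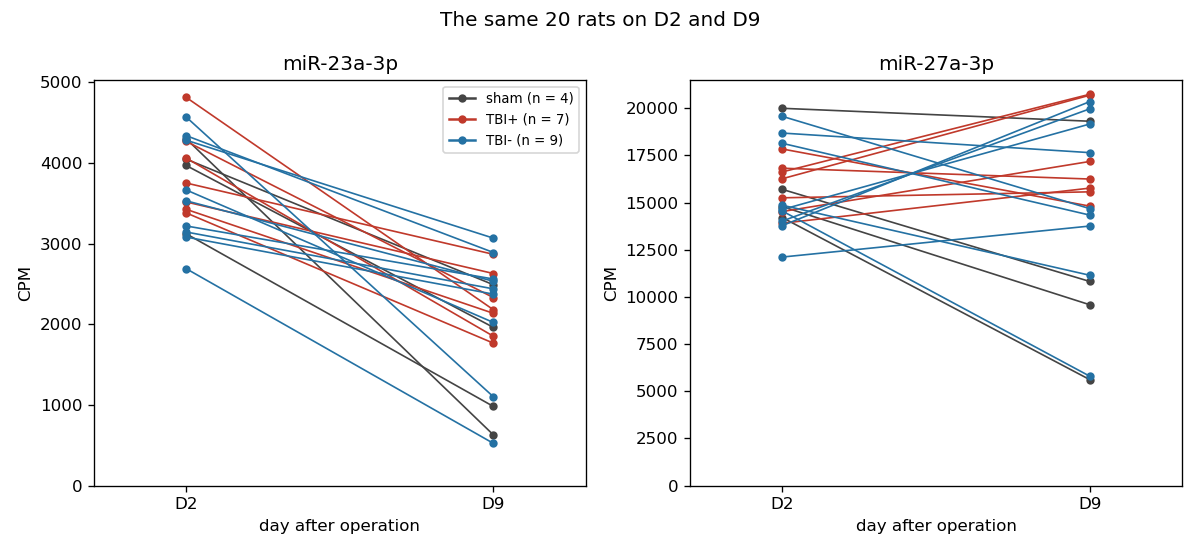
CPM of miR-23a-3p (left) and miR-27a-3p (right) on D2 and D9, with 1 line per rat (4 sham, 7 TBI+ and 9 TBI− rats). The line of miR-23a-3p goes down in 20 of 20 rats, and that of miR-27a-3p in 11 of 20.

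In sham-operated rats the same comparison describes the days without the injury. The log2 fold change of miR-23a-3p was −1.37 (SE 0.33, adjusted p = 0.0076) and that of miR-23b-3p −1.37 (SE 0.33, adjusted p = 0.0077). Together with miR-24-3p 3 of 10 members were called, against 6.71% of 581 miRNAs. The 2 lower members compare with 3.79% called lower, and the 1 higher member with 2.93% called higher, a balance of 22 lower and 17 higher that turned to 13 lower and 23 higher under RLE scaling. Both lower members are the near-identical pair. The call of miR-23a-3p was lost without sham rat 2, on both days (−1.47, adjusted p = 0.065), and without sham rat 3 (−1.07, adjusted p = 0.12), in a range of 0.0028 to 0.12 over 13 alternatives. Without sham rat 2 edgeR called 0% of 580 miRNAs higher and 0.34% lower, so most calls of the comparison were lost. DESeq2 without sham rat 2 still called miR-23a-3p (−1.29, adjusted p = 0.016). All sham D9 libraries have higher numbers than all sham D2 libraries, so day and library number cannot be told apart in sham-operated rats from their own values.

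Whether the change of miR-23 differed after injury was tested directly. The change from D2 to D9 in TBI minus that in sham-operated rats was 0.62 on the log2 scale for miR-23a-3p (SE 0.36, adjusted p = 0.43). It was 0.79 without sham rat 2 (adjusted p = 0.43), 0.33 without sham rat 3 (adjusted p = 0.88) and 0.90 without sham rat 4 (adjusted p = 0.21). A different change was therefore not shown, and the injured rats had the smaller estimate of the decrease in each of these fits.

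Depth moved with the level of miR-23 on D9 by Pearson's r, while Spearman's rho missed the threshold after adjustment. The D9 libraries of the sham-operated rats held 140636 to 358202 reads, and those of the injured rats 332161 to 2864893. Within the 16 injured rats on D9, log2 CPM of miR-23a-3p and log2 library total had Pearson's r = 0.71 (permutation p = 0.00084, adjusted p = 0.0034 over 4 relations) and Spearman's rho = 0.60 (permutation p = 0.016, adjusted p = 0.063). Without the 2 libraries farthest from the median total, r was 0.44, so the relation rested in part on them. Within the first run of numbers r was 0.81 (n = 8), and the other runs held 4 libraries each, too few for a value. The first run holds the shallowest injured D9 libraries, TBI− rats 2 and 4 (332161 and 491342 reads). An r within it on D9, here or for miR-27a-3p, is therefore not a separate finding, and no value without them is given. On D2 the injured rats had r = −0.01 (permutation p = 0.97, adjusted p = 0.97) and rho = −0.08 (permutation p = 0.77, adjusted p = 0.77), with r = 0.04 in the second run (n = 9). For miR-27a-3p the D9 relation had r = 0.47 (permutation p = 0.075, adjusted p = 0.15) and rho = 0.11 (permutation p = 0.67, adjusted p = 0.77), with r = −0.27 without the 2 farthest libraries and r = 0.58 in the first run. On D2 its r was −0.14 (permutation p = 0.61, adjusted p = 0.82) and its rho −0.08 (permutation p = 0.76, adjusted p = 0.77), with r = −0.11 in the second run. The relation of miR-27 to depth thus missed the threshold on both days. The part of depth in the change between the days was not tested.

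Markers of blood cells and organs also moved between the days in TBI rats. Over all 581 miRNAs 13.9% were called higher and 18.1% lower there. Of the red cell miRNAs in the counts, 4 of 4 rose, with miR-16-5p the most abundant and a summed level of 27835 ± 9571 CPM on D2 and 41947 ± 15609 CPM on D9 (SD, n = 16). In sham-operated rats their sum was 25893 ± 4332 CPM on D2 and 28281 ± 15046 CPM on D9 (SD, n = 4). Sham rat 2 had 44768 CPM on D9, and the sum without it was 22786 ± 12584 CPM (n = 3), below that of D2. MiR-486, also on that list, is not among the counted miRNAs. In TBI rats 2 of 4 platelet and myeloid miRNAs rose, as did 2 of 3 lymphocyte miRNAs. Of the 3 vessel wall miRNAs with reads 1 rose and 2 fell, 1 of 2 muscle miRNAs fell, and 2 of 4 brain miRNAs fell. Of the liver miRNAs only miR-192-5p had reads, and it did not pass the test. These calls were the same miRNAs without sham rat 2 in the fit, where 16.0% of 580 were called higher and 17.6% lower. In sham-operated rats, where 2.93% of all were called higher and 3.79% lower, miR-146a-5p of the platelet and myeloid list rose, and miR-145-5p of the vessel wall and miR-128-3p of the brain fell (log2 fold changes 2.33, −1.99 and −1.25, adjusted p = 0.0076, 0.0032 and 0.046). Of these calls that of miR-145-5p was kept without sham rat 2, and the others were lost (0.03, −2.47 and −1.48, adjusted p = 1.0, 0.0028 and 0.099). Over all 580 miRNAs of that fit 0% were called higher and 0.34% lower, so calls were lost across the comparison. The defining markers miR-122-5p, miR-126a-5p, miR-1-3p and miR-133a-3p had 0 reads in all libraries. The part of these sources in the change of miR-23 was not tested, and in plasma fewer releasing cells and less RNA per cell cannot be told apart.

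The ratio of miR-451-5p to miR-23a-3p is used to judge red cell lysis, for which the study also screened its plasma by eye and by the absorbance of hemoglobin. Between the days miR-451-5p rose in TBI rats (log2 fold change 0.86, and 0.94 without sham rat 2 in the fit, adjusted p = 0.0029 in both), while in sham-operated rats it had 0.15, and −0.07 without sham rat 2 (adjusted p = 1.0 in both). The log2 ratio of reads was higher on D9 in 20 of 20 rats, with a median of −0.21 on D2 (from −1.28 to 0.90) and 1.13 on D9 (from 0.06 to 2.39). Its denominator, miR-23a-3p, was itself lower on D9 in 20 of 20 rats, so this count is not separate from that decrease. In sham-operated rats miR-23a-3p had a log2 fold change of −1.37 between the days, beside the 0.15 of miR-451-5p. Injured and sham-operated rats overlapped on both days. On D2 the mean was −0.28 ± 0.64 in TBI (n = 16) and −0.52 ± 0.66 in sham-operated rats (n = 4), a difference of 0.25 (exact permutation test, two-sided, p = 0.5001, adjusted p = 0.646 over 2 days). On D9 the means were 1.28 ± 0.63 and 1.13 ± 0.23, a difference of 0.15 (exact permutation test, two-sided, p = 0.646, adjusted p = 0.646). The D9 difference was 0.13 without sham rat 2 (unadjusted p = 0.72), 0.24 without sham rat 3 and 0.06 without sham rat 4, and the D2 difference was 0.49 without sham rat 1 and 0.15 without sham rat 2. The sign of both differences was unsteady, since it turned on D2 without sham rat 3 (−0.0026) and on D9 within the third run of numbers (−0.06).

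MiR-27, from the same transcripts, was not called between the days. In the injured rats miR-27a-3p lay between 12112 and 19566 CPM on D2 with a median of 15053, and between 5798 and 20736 CPM on D9 with a median of 16004. In the sham-operated rats 1 to 4 it was 14783, 15697, 14202 and 19992 CPM on D2, and 9585, 10819, 5617 and 19308 CPM on D9. The days overlapped in both groups. On D9 the level was lower in 4 of 4 sham-operated rats, at a median of 66.9% of D2, and in 7 of 16 injured rats, with a median of 107.7%. In TBI rats the log2 fold change between the days was 0.05 for miR-27a-3p (SE 0.14, adjusted p = 0.80), with the opposite sign under DESeq2 and RLE scaling (−0.01 in both). It was 0.08 without sham rat 2 in the fit (adjusted p = 0.69), and −0.0085 under DESeq2 without that rat. In sham-operated rats it was −0.52 (SE 0.28, adjusted p = 0.31), and −0.50 without sham rat 2 (adjusted p = 0.56, with 0.13 to 0.68 over 13 alternatives). The ratio of miR-23a-3p to miR-27a-3p accordingly had a median of 22.9% on D2 and 12.8% on D9, a description without a test.

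Among the 5p arms, miR-27b-5p averaged 10.6 ± 5.6 CPM on D2 and 17.3 ± 8.7 CPM on D9 in TBI rats (SD, n = 16). Its log2 fold change of 0.72 (SE 0.29, adjusted p = 0.056) was just short of the threshold, and passed it with the rat as a block (0.72, adjusted p = 0.042), after a filter on low counts (0.69, adjusted p = 0.0496) and without sham rat 2 in the fit (0.75, adjusted p = 0.0492), in a range of 0.042 to 0.092 over 10 alternatives. MiR-24-3p and miR-24-2-5p were not called between the days in TBI rats (log2 fold changes −0.12 and 0.11, adjusted p = 0.80 and 0.61, and −0.07 and 0.12 without sham rat 2 in the fit, adjusted p = 0.75 and 0.55). Of the 16 injured rats none had more than 96 reads of miR-27b-5p in a library, so its values carry wide counting error.

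On D2 the comparison of injured with sham-operated rats asks for an early mark of the injury. The guide arms were close in both. MiR-23a-3p had a log2 fold change of 0.06 in TBI against sham (SE 0.17, adjusted p = 0.89) and miR-27a-3p of 0.08 (SE 0.16, adjusted p = 0.82). MiR-24-3p was 858, 853, 812 and 806 CPM in sham rats 1 to 4 and lay from 490 to 1251 CPM in the injured rats with a median of 744, with a log2 fold change of 0.05 (SE 0.20, adjusted p = 0.93). All 4 sham values lay within the range of the injured rats.

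MiR-24-2-5p, the arm made only by the miR-23a cluster, was the member called lower in TBI− rats on D2. Sham rats 1 to 4 had 414, 478, 399 and 531 CPM. The TBI+ rats lay between 227 and 424 CPM with a median of 331, and the TBI− rats between 181 and 357 CPM with a median of 247. Every TBI− rat was below every sham-operated rat, while 5 of 7 TBI+ rats were. This separation is a description without a test, and the share of all miRNAs with such a separation is not given. On D9 the groups overlapped, with 441, 660, 287 and 193 CPM in sham rats 1 to 4 and 165.3 to 536.5 CPM in the injured rats (median 295). For TBI− against sham on D2 its log2 fold change was −0.65 (SE 0.20, adjusted p = 0.045, edgeR). This was the 1 of 10 members called, lower, against 6.19% of 565 miRNAs called and 3.01% called lower. DESeq2 also called it (−0.60, adjusted p = 0.017). The study itself lists this miRNA as lower in the same comparison, from DESeq2 (−0.60), so the call repeats a reported one. The edgeR call was lost without sham rat 2 (−0.59, adjusted p = 0.17), sham rat 3 (−0.72, adjusted p = 0.054) or sham rat 4 (−0.62, adjusted p = 0.13), and under RLE scaling (−0.60, adjusted p = 0.082). The value moved to −0.39 with the run of library numbers as a term (adjusted p = 0.95), to −0.45 with the last library of the second run put in the third (adjusted p = 0.95) and to −0.46 with the number as a linear term (adjusted p = 0.49). The adjusted p ran from 0.016 to 0.95 over 14 alternatives, of which 5 kept the call. Every TBI− library of D2 has a higher number than every sham library of D2, so group and library number cannot be told apart here. The injured rats averaged 370 ± 64 CPM in the first run (n = 4, all TBI+), which holds the sham rats with 456 ± 61 CPM (n = 4) and no TBI− rat of D2. They averaged 277 ± 61 CPM in the second run (n = 9, 3 TBI+ and 6 TBI−) and 251 ± 80 CPM in the third (n = 3, all TBI−). Over these averages run and outcome cannot be told apart.

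The other D2 comparisons, which share the sham libraries or the injured ones with it, called no member. For TBI against sham 0 of 10 members passed edgeR's test, 1 had an unadjusted p below 0.05, and DESeq2 called 0, where 6.19% of 565 miRNAs were called and 18.2% had such an unadjusted p. That member was miR-24-2-5p (−0.52, SE 0.19, adjusted p = 0.11). For TBI+ against sham 0 of 10 passed, 0 had an unadjusted p below 0.05, and DESeq2 called 0, where 3.19% of 565 were called and 16.5% had such an unadjusted p. MiR-24-2-5p had a log2 fold change of −0.37 there (SE 0.21, adjusted p = 0.43). The difference between TBI+ and TBI− was 0.29 for this miRNA (SE 0.17, adjusted p = 0.78), so a difference between the outcomes was not shown. Of the lymphocyte miRNAs 1 of 3 was lower in TBI− than in sham on D2, and 2 of 3 were lower in TBI, with sums of 15919 ± 6055 CPM in TBI (n = 16) and 31254 ± 12453 CPM in sham (n = 4). Of the 4 brain miRNAs 2 were higher in TBI− and 2 in TBI. Over all 565 miRNAs 3.01% were called lower and 3.19% higher in each of these comparisons. The part of these sources in the level of miR-24-2-5p was not tested.

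**Figure D2:**
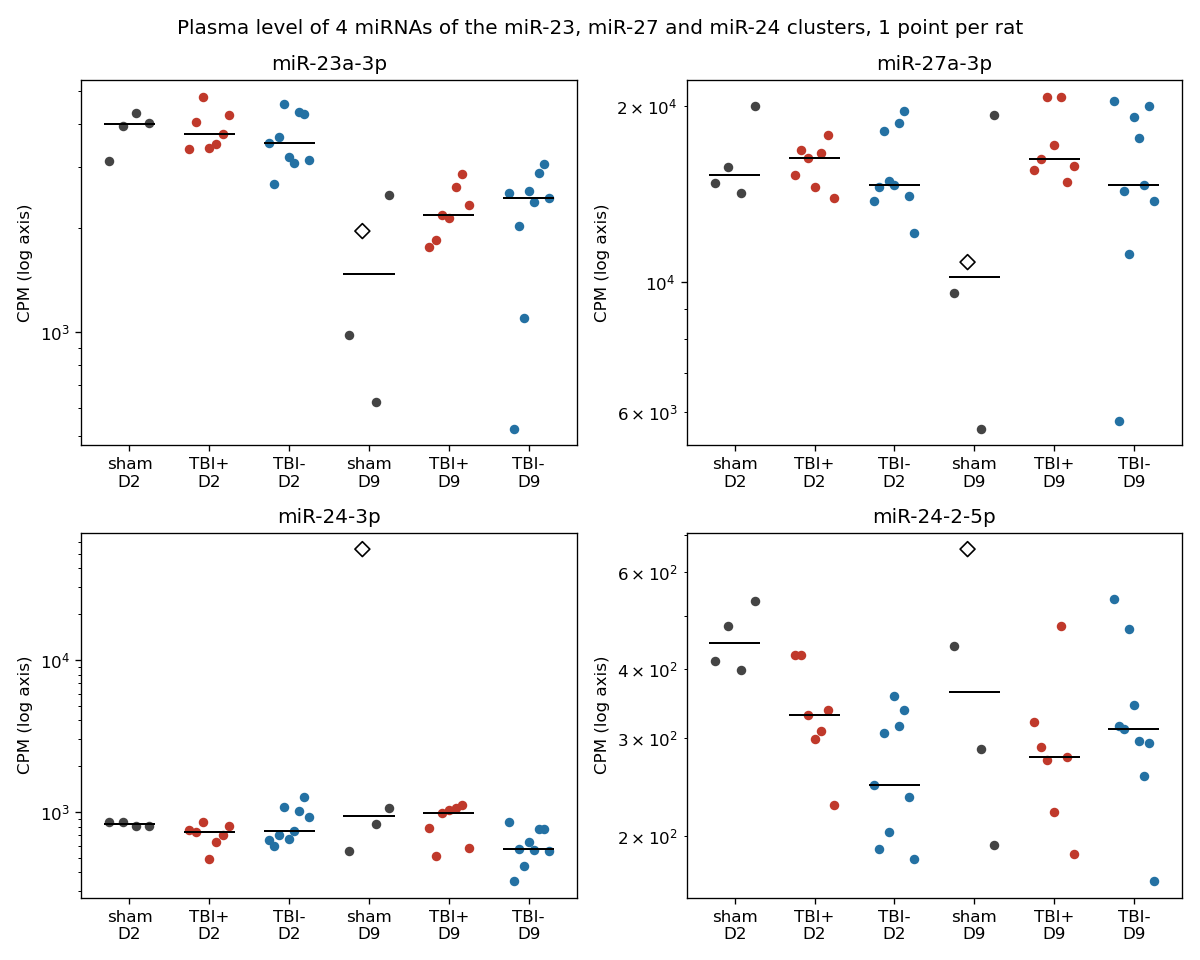
CPM on a log axis of miR-23a-3p, miR-27a-3p, miR-24-3p and miR-24-2-5p in the 6 groups, with 1 point per rat and a line at each group's median; the open diamond is sham rat 2 on D9. For miR-24-2-5p on D2 the TBI− rats lie at or under 357 CPM and the sham rats at or above 399 CPM, and for miR-24-3p the diamond lies at 53601 CPM with every other point at or under 1251 CPM.

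On D9 miR-24-3p was the member called, and the call rested on sham rat 2. Sham rats 1 to 4 had 555, 53601, 831 and 1061 CPM. The TBI+ rats lay between 510 and 1109 CPM with a median of 979, and the TBI− rats between 349 and 859 CPM with a median of 572. Apart from sham rat 2, each sham-operated rat lay within the range of the injured rats. With all rats, miR-24-3p was the 1 of 10 members called in TBI against sham, as lower (3.51% of 541 miRNAs called, 2.40% called lower). It was again the 1 of 10 in TBI+ against sham (1.85% called, 1.85% called lower), with a log2 fold change of −3.88 (SE 0.67, adjusted p = 0.00027). In TBI− against sham it was the 1 of 10 (4.81% called, 3.51% called lower), with −4.41 (SE 0.62, adjusted p = 9.8e-06).

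Without sham rat 2 each of these calls was lost. The log2 fold change of miR-24-3p was −0.18 in TBI (adjusted p = 0.88), 0.09 in TBI+ (adjusted p = 0.94) and −0.44 in TBI− (adjusted p = 0.70), against 3 sham-operated rats. The adjusted p over the alternatives ran from 7.3e-08 to 0.88 in TBI, from 3.0e-08 to 0.95 in TBI+ and from 3.1e-07 to 0.70 in TBI−. Across the 541 miRNAs edgeR then called 0 in each of the 3 comparisons, with 70, 75 and 63 at an unadjusted p below 0.05, while DESeq2 without that rat called 17, 18 and 6, none of them a member. These comparisons share the sham libraries, so their values are not separate findings. With all rats DESeq2 gave miR-24-3p no adjusted p, since its check for extreme counts set the test aside.

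The same library carried the other calls of miR-24-3p. Between the days in sham-operated rats its log2 fold change was 4.00 (SE 0.69, adjusted p = 0.00014), and −0.01 without sham rat 2 (adjusted p = 1.0). With the rat as a block, which pairs both days of an animal, it was 0.94 (adjusted p = 0.22, with 4.2e-05 to 1.0 over the 12 alternatives that gave one). In the test of whether the days differed more in TBI than in sham-operated rats it was the 1 of 10 members called, lower (3.79% of 581 called, 1.89% called lower). Over all miRNAs 11 were called higher and 11 lower there, and 4 and 15 under RLE scaling.

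The other members did not pass the test between injured and sham-operated rats on D9. With all rats, 4 of 10 members had an unadjusted p below 0.05 in TBI against sham (edgeR), as did 15.9% of all miRNAs. They were miR-24-3p, miR-27a-5p and the near-identical miR-27a-3p and miR-27b-3p. Without sham rat 2 the unadjusted p of miR-27a-5p was 0.056. MiR-23a-3p had a log2 fold change of 0.65 in TBI against sham (SE 0.35, adjusted p = 0.40), and miR-27a-3p of 0.60 (SE 0.29, adjusted p = 0.30). MiR-24-2-5p had −0.23 (SE 0.30, adjusted p = 0.81). Without sham rat 2 the 3 values were 0.72, 0.51 and −0.0049 (adjusted p = 0.44, 0.56 and 0.99). Without sham rat 3 they were 0.38, 0.37 and −0.37 (adjusted p = 0.82, 0.79 and 0.80), and without sham rat 4 1.00, 1.00 and −0.46 (adjusted p = 0.14, 0.067 and 0.48). Without sham rat 1 miR-24-2-5p had −0.14 (adjusted p = 0.88). MiR-27a-5p was 14.2, 6.2, 19.8 and 5.6 CPM in sham rats 1 to 4, from 4 reads or fewer each, and 7.3 to 51.2 CPM in the injured rats with a median of 26.7. Of the injured rats 14 of 16 were above every sham-operated rat, with a log2 fold change of 1.52 (SE 0.55, adjusted p = 0.12), and 1.23 without sham rat 2 (SE 0.62, adjusted p = 0.40, with 0.11 to 0.57 over 14 alternatives). At the depth of the sham libraries this difference did not pass the test.

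Between the outcomes, TBI+ against TBI− asks for a plasma mark of later epilepsy. On D2 edgeR called 0 of 10 members and 0% of 565 miRNAs, 1 member had an unadjusted p below 0.05, as did 6.73% of the 565, and DESeq2 called 0. That member was miR-27a-5p, with 7.2 to 26.2 CPM in TBI+ (median 16.0) and 16.1 to 41.9 CPM in TBI− (median 28.7). The groups overlapped, although 4 of 7 TBI+ rats were below every TBI− rat. Its log2 fold change was −0.91 (SE 0.31, adjusted p = 0.43), and −0.39 with the run of library numbers as a term (adjusted p = 1.0), −0.40 with the last library of the second run put in the third (adjusted p = 1.0) and −0.27 with the number as a linear term (adjusted p = 0.93, with 0.24 to 1.0 over 9 alternatives). The injured rats averaged 12.2 ± 4.4 CPM in the first run (n = 4), all of them TBI+, where the sham-operated rats had 22.9 ± 10.8 CPM (n = 4). The injured rats of the other runs averaged 26.2 ± 6.6 CPM in the second (n = 9, 3 TBI+ and 6 TBI−) and 32.2 ± 14.0 CPM in the third (n = 3, all TBI−).

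On D9 edgeR called 0 of 10 members and 0% of 541 miRNAs between the outcomes, 0 members but 4.07% of the 541 had an unadjusted p below 0.05, and DESeq2 called 0. MiR-24-3p had the lowest adjusted p of the members, with a log2 fold change of 0.52 (SE 0.53, adjusted p = 0.90). The sham libraries share this fit, and without sham rat 2 it was 0.53 (SE 0.25, unadjusted p = 0.038, adjusted p = 0.70), the 1 member then at an unadjusted p below 0.05, with 0 of 541 miRNAs called by edgeR or DESeq2 and 29 and 18 at such a p. DESeq2 gave miR-24-3p no p with all rats, and a log2 fold change of 0.50 without sham rat 2 (SE 0.20, unadjusted p = 0.013, adjusted p = 0.99). Its TBI+ and TBI− rats overlapped, with 4 of 7 TBI+ rats above every TBI− rat.

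Apart from the near-identical pairs, products of the clusters followed each other loosely across rats. The guide reads cannot be assigned to a cluster, so these values are not within a known transcript. On D2 Spearman's rho over 20 rats was 0.14 between miR-23a-3p and miR-27a-3p, 0.52 between miR-23a-3p and miR-24-3p, and 0.55 between miR-27a-3p and miR-24-2-5p. On D9 the same pairs had 0.66, 0.43 and −0.05, or 0.62, 0.52 and 0.07 over 19 rats without sham rat 2. MiR-24-2-5p shares its hairpin with only a part of miR-24-3p, which both clusters make. Their rho was 0.01 on D2 and −0.0015 on D9, or −0.17 on D9 without sham rat 2. All are descriptions over libraries that differ in group and depth, and levels in 1 library share its total.

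The miRNAs outside the clusters that ran most like each member were found by Spearman's rho over the 20 rats on D2, among 259 with a mean of at least 10 CPM. For miR-23a-3p they were miR-10a-3p (0.78), miR-10b-3p (0.70), and miR-10a-5p, miR-10b-5p and miR-221-3p (0.65 each). On D9 without sham rat 2 miR-10a-3p had 0.45, miR-10b-3p 0.65, miR-221-3p 0.54, and miR-10a-5p and miR-10b-5p −0.04 each. For miR-27a-3p they were miR-362-3p (0.64), miR-101a-3p (0.64), miR-99a-3p (0.62), miR-101b-3p (0.60) and miR-153-3p (0.59). Their values on D9 without sham rat 2 were 0.72, −0.17, 0.50, −0.27 and 0.51 in the same order. For miR-24-3p they were miR-10a-3p (0.73), miR-146a-5p (0.70), miR-130b-3p (0.69), miR-146b-5p (0.66) and miR-542-5p (0.64). On D9 without sham rat 2 miR-146a-5p, a miRNA of myeloid cells, had 0.76 with miR-24-3p. There miR-146b-5p had 0.78, miR-542-5p 0.58, miR-10a-3p 0.50 and miR-130b-3p 0.28. For miR-24-2-5p they were miR-362-3p (0.84), miR-140-3p (0.73), miR-340-5p (0.70), miR-30e-5p (0.69) and miR-18a-3p (0.68). The closest of them on D2, miR-362-3p, had 0.05 on D9 without sham rat 2, where miR-140-3p had 0.09, miR-18a-3p 0.01, miR-30e-5p 0.54 and miR-340-5p 0.78.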

How the data were processed

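The authors trimmed reads (Trimmomatic 0.36), aligned them with Bowtie2 to Rno6, and deposited raw counts per mature miRNA of miRBase from featureCounts. These counts were tested with edgeR 4.0.16 (TMM, quasi-likelihood test, Benjamini-Hochberg adjustment) over all miRNAs with a read in the libraries fitted, per day or over both days, in R 4.3.3. DESeq2 1.42.0 was an alternative. Its call was run in 3 forms, and the choice among them was made after output had been seen. Each form called the same number of members in each comparison, while all calls for D9 TBI against sham numbered 26, 28 (the form used) and 17. Descriptions used Python 3.11.15 with scipy 1.17.1, numpy 2.4.6 and pandas 2.3.3, and figures matplotlib 3.10.9. The log2 ratio used reads with 1 added. Intervals and limits of 3 reads cover counting error only. Members, marker lists and the naming rule were chosen with earlier results of these data known. Named miRNAs were all members, the markers, the 5 most alike miRNAs per described member, and those of sham rat 2 with at least 10 reads and 10 times every other library. Identical libraries were checked for (0 pairs). The fit was also run on simulated counts with known changes, whose outcome is not given here. Those counts had the same spread for every miRNA and no outlying library, so they do not bear on the library of sham rat 2. Pairing of days comes from the animal in the labels: deviations of the same rat correlated at a median of −0.06, and above 0.1 in 5 of 20 rats. Other rats of the same group had a median of −0.007, and were above 0.1 in 42 of 126 pairs. The same rat was thus not more alike over the days than other rats, and the pairing rests on the labels alone.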

Additional observations from a re-analysis of the deposited data

Results flagged for a closer look

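The level of miR-24-3p in sham rat 2 on D9 was 53601 CPM, while the other 3 sham-operated rats had 555, 831 and 1061 CPM. It stands far from its group. This was 1 of 54 groups of samples looked at in this way, and chance alone would mark about 1 in 20. The cause was not tested.

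The change of miR-24-3p from D2 to D9 differed between injured and sham-operated rats, by a log2 difference of −4.12 (SE 0.74, adjusted p = 0.00034). Without sham rat 2 the difference was −0.06 (adjusted p = 1.0), and with the rat as a block −1.09 (adjusted p = 0.23).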

How the results depend on the processing

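Numbers of members called were compared between settings. For TBI− against sham on D2, 0 members were called under RLE scaling, and, chosen after seeing the data, in DESeq2 without sham rat 2 and with the run of numbers as a term, also with 1 library moved between runs or the number as a linear term, and 0 to 1 when each sham rat was left out in turn. For D9, DESeq2 called 0 in TBI, TBI+ and TBI− against sham, with and without sham rat 2, and leaving out each sham rat gave 0 to 1 in each. With all rats in, DESeq2 gave no adjusted p for miR-24-3p, which is not a lost call. For the difference in change, DESeq2 called 0 in both ways and the left-out rats gave 0 to 1. In sham-operated rats between the days, leaving out each rat gave 0 to 3.

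The log2 fold change of miR-24-3p in TBI+ on D9 turned to 0.0907 without sham rat 2 (range over the sham rats −4.28 to 0.0907) and to 0.0342 in DESeq2 without that rat. Between the days in sham-operated rats it turned to −0.00595 (range −0.00595 to 4.47). For miR-27a-3p in TBI between the days it was −0.0126 in DESeq2, −0.00853 in DESeq2 without sham rat 2 and −0.0128 under RLE scaling. The log2 ratio of miR-451-5p to miR-23a-3p ranged from −0.0026 to 0.49 on D2 over the sham rats left out, and was −0.062 on D9 in 1 run of numbers. The cause was not tested, except that single libraries were left out.

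As a replicate block, the rat pairs the days. It ended the calls of miR-24-3p between the days in sham-operated rats and in the difference in change (0 members called), took miR-27b-5p in TBI past the threshold, and changed no other member's call between the days. Between groups, animals share only a number: same-numbered rats correlated above 0.1 in 3 of 15 pairs on D2 and 4 of 15 on D9, and 0 and 2 of 20 libraries were most alike to their own number. That block gave 0 members for TBI− against sham on D2 and 0 for TBI+ against sham on D9.

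Over all miRNAs, RLE scaling moved the median log2 fold change from 0.30 to 0.12 for D9 TBI against sham, from 0.21 to 0.06 for D9 TBI− and from 0.09 to −0.16 for the difference in change. Library totals alone moved it to 0.18 for D9 TBI, to 0.11 for D9 TBI−, from 0.09 to −0.02 for D2 TBI and from 0.06 to −0.05 for D2 TBI−. Calls ranged over the settings from 0 to 28 (19 as reported) for D9 TBI, 0 to 18 (10) for D9 TBI+, 0 to 27 (26) for D9 TBI−, 2 to 41 (35) for D2 TBI−, 15 to 46 (35) for D2 TBI, 11 to 34 (18) for D2 TBI+, 0 to 3 (0) for TBI+ against TBI− on D2, 2 to 47 (39) for the days in sham and 2 to 30 (22) for the difference in change. The shallow sham libraries of D9, with limits of 8.38 to 21.3 CPM, bound what could be seen of miR-27a-5p and miR-27b-5p.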
